A study of Mus musculus with 15 samples.

Results

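The 8 cytosolic sulfotransferase genes Sult1a1, Sult1b1, Sult1c2, Sult1d1, Sult1e1, Sult2a8, Sult3a1 and Sult5a1 were followed across mouse liver libraries. They were chosen by name as the rows of the count table that carry these symbols, 8 of 57132 gene identifiers. The libraries came from male C57BL/6J mice that were 8 weeks old when the diets began, in 3 groups. SR9009 mice (5 libraries) ate CDA-HFD, a high-fat diet of defined amino acids without choline, for 18 weeks and were injected intraperitoneally with SR9009, an agonist of the REV-ERB nuclear receptors, at 100 mg/kg per day during the final 6 weeks. Vehicle mice (5 libraries) had the same diet and, over the same weeks, daily injections of 15% Kolliphor ELP in saline. Chow mice (4 libraries) ate standard chow for 18 weeks. The diet injures the liver by withholding choline, and it was given to both injected groups. No label states that Chow mice were injected, so diet and injections cannot be told apart in any contrast with Chow. No label gives the hour of collection.

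Cytosolic sulfotransferases move a sulfonate group from the donor PAPS onto hydroxyl or amine groups of hormones, bile acids and drugs, which makes them more soluble and usually inactive. Hepatocytes are the main site of this conjugation, and they make PAPS from inorganic sulfate, much of it derived from cysteine. SULT1 enzymes act mostly on phenols, including estrogens, thyroid hormones and catecholamines, while SULT2 enzymes act on the hydroxyl groups of steroids and bile acids.

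The members share a loop that holds PAPS, and their coding sequence over that loop is shown to let the genes be compared at a stretch that the family conserves. Capitals mark the codons of the loop itself, with flanking codons in lower case, from GENCODE transcripts on GRCm38.
Sult1e1: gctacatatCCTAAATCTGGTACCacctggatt
Sult1a1: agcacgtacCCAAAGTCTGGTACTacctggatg
Sult1b1: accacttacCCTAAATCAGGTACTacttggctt
Sult1c2: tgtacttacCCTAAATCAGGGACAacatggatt
Sult1d1: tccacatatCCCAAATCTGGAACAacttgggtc
Sult2a8: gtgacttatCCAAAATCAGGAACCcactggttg
Sult3a1: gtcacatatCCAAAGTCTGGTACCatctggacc
Sult5a1: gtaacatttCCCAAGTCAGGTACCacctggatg
The loop starts at codon 50 in Sult1a1, 48 in Sult1c2, 47 in Sult1b1, Sult1d1 and Sult1e1, 45 in Sult3a1 and Sult5a1, and 43 in Sult2a8. The bases of the loop differed between all 8 members, but the amino acids they encode were the same. The loop was located by its amino acid pattern, so part of that sameness is built in. Over the whole coding sequence, 7 members were 54.3% to 69.4% identical to their nearest relative among 20 family genes compared, and their longest exact match with any of them ran 19 to 29 bases. Sult3a1 was the exception, at 90.9% identity with Sult3a2 and a shared run of 93 bases, so reads of that pair may not be separable. Sult1a1 shares 61 exon bases with Sgf29 on the opposite strand of chromosome 7 (GRCm38). Whether the counting used strand is not stated here, so reads over those bases cannot be assigned.

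Total counts ranged from 29950509 to 45542335 per library. A floor of 3 counts corresponded to 0.0659 to 0.10 CPM (counts relative to library size) on these raw totals, which covers counting error only. Other CPM values use totals scaled by TMM. Levels of different genes are compared only as CPM per kb of exon. Of 18181 genes that passed the expression filter, 7 were members, and Sult3a1 fell below it. Hepatocyte markers were abundant in every library, with a summed level of 89830 to 110300 CPM in SR9009, 100300 to 109900 in Vehicle and 123000 to 166700 in Chow. The 10 diet-fed libraries parted into those with 58 to 76 and those with 150 to 231 olfactory, vomeronasal and trace amine receptor genes detected. SR9009 replicates 2, 4 and 5 and Vehicle replicates 1, 2 and 3 had many, and values within each class are given where they bear on a member. Nothing in the labels states that each library is a separate animal, so p-values measure only the spread between these samples.

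Diet-fed livers held a different mix of sulfotransferase transcripts from Chow livers. Sult2a8 transcripts made up 10.8% ± 3.93 of the summed CPM per kb of the 8 genes in SR9009 livers and 20.6% ± 11 in Vehicle livers (SD, n = 5 each), against 63.3% ± 4.63 in Chow livers (SD, n = 4). Sult1a1 held the largest mean share in both diet-fed groups, at 55.2% in SR9009 and 54.5% in Vehicle, against 24.1% in Chow. Sult1e1 held 8.30% in SR9009 and 2.31% in Vehicle, against 0.0802% in Chow. The summed level was 201 to 264 CPM per kb in SR9009 and 206 to 275 in Vehicle, below every Chow library, at 482 to 571. In bulk RNA, fewer cells of a type and less RNA per cell cannot be told apart.

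**Figure D1:**
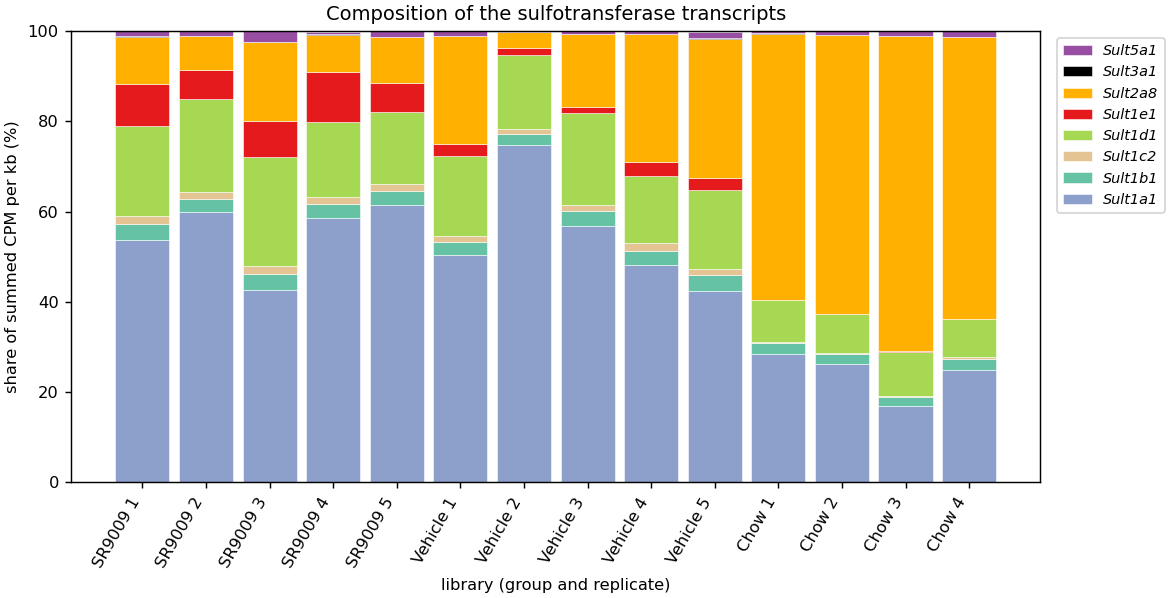
Share of each of the 8 genes in their summed CPM per kb (vertical axis, percent), 1 stacked bar per library for the 5 SR9009, 5 Vehicle and 4 Chow livers. Sult2a8 fills 59.0% to 69.9% of the Chow bars and at most 30.9% of any diet-fed bar, while Sult1e1 is visible in the diet-fed bars only.

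The order of mean levels per length shifted with it. In SR9009 livers it ran Sult1a1 (132 CPM per kb), Sult1d1 (46.5), Sult2a8 (26.5), Sult1e1 (19.9), Sult1b1 (7.89), Sult1c2 (4.03), Sult5a1 (3.07) and Sult3a1 (0.110). In Vehicle livers it ran Sult1a1 (126), Sult2a8 (50.8), Sult1d1 (40.9), Sult1b1 (7.31), Sult1e1 (5.57), Sult1c2 (3.11), Sult5a1 (1.84) and Sult3a1 (0.00739). In Chow livers it ran Sult2a8 (328), Sult1a1 (125), Sult1d1 (46.8), Sult1b1 (11.4), Sult5a1 (4.68), Sult1c2 (1.71), Sult1e1 (0.426) and Sult3a1 (0.0523). Some neighbours lay within their spread: Sult2a8 had an SD of 11.9 CPM per kb in SR9009, more than the gap to Sult1e1, and 30.3 in Vehicle, more than the gap to Sult1d1. The gaps between Sult1b1 and Sult1e1 in Vehicle and between Sult1c2 and Sult5a1 in SR9009 were also smaller than the SD of 1 of the pair, 2.30 for Sult1e1 and 2.02 for Sult5a1. So was the gap between Sult1c2 and Sult5a1 in Vehicle, where Sult5a1 had an SD of 1.56.

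**Figure D2:**
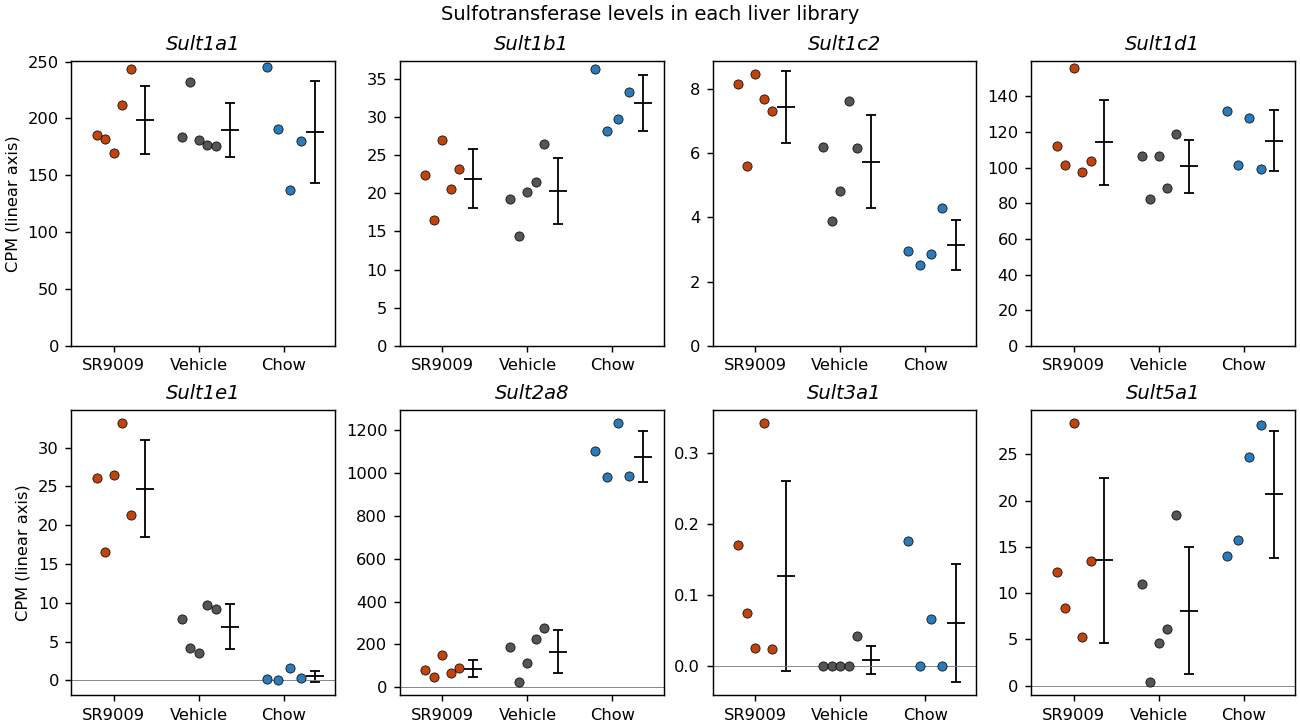
Level of each of the 8 genes in CPM (linear vertical axis), 1 point per library for the SR9009, Vehicle and Chow groups, with the group mean and SD beside the points. Sult1e1 is highest in the 5 SR9009 livers (16.5 to 33.2 CPM) and Sult2a8 in the 4 Chow livers (981 to 1234 CPM). Every pair of groups overlaps for Sult1a1, Sult1d1, Sult3a1 and Sult5a1. SR9009 and Vehicle also overlap for Sult1b1, Sult1c2 and Sult2a8, and Vehicle and Chow for Sult1c2.

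The first comparison, Vehicle against Chow, asks what the diet with vehicle injections did to these genes. Sult1e1 and Sult1c2 rose, Sult1b1 and Sult2a8 fell, and Sult1a1, Sult1d1 and Sult5a1 did not pass the test. Thus 2 of 7 tested members were called higher and 2 lower by edgeR's quasi-likelihood test with Benjamini-Hochberg adjustment over 18181 genes. In the same contrast 29.8% of all tested genes were called higher, 25.4% lower and 55.2% in either direction, so the members' share is near that of the transcriptome. The members' median log2 fold change was -0.19, against 0.02 over all tested genes. Sult1e1 passed the filter through its diet-fed libraries, so its difference from Chow is partly fixed by the filter.

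Sult1e1, the estrogen sulfotransferase that inactivates estradiol, was the member with the largest rise. It had 7.87, 4.24, 3.54, 9.72 and 9.24 CPM in Vehicle replicates 1 to 5, against 0.175, 0.0286, 1.62 and 0.289 CPM in Chow replicates 1 to 4. All Vehicle livers lay above all Chow livers, and Chow replicate 3 held 49 of the 62 Chow counts. The log2 fold change was 3.71 ± 0.63 (SE), a 13.0-fold rise with a 95% interval of 5.08 to 33.5, and edgeR's adjusted p was 0.000222. Without Chow replicate 3 the log2 fold change was 5.50, so the size of the fold rests on that library.

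Sult2a8, which sulfonates bile acids in mouse liver, moved the other way. It had 189.9, 24.6, 113.8, 226 and 279 CPM in Vehicle livers, against 1105, 981, 1234 and 988 CPM in Chow livers. No Vehicle liver reached the Chow range, but Vehicle livers differed among themselves by 11.4-fold and Chow livers by 1.26-fold. The log2 fold change was -2.69 ± 0.52 (SE), a 6.46-fold fall, with an adjusted p of 0.000657 from edgeR.

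Sult1b1, an enzyme for thyroid hormones and other phenols, had 19.2, 14.4, 20.2, 21.5 and 26.4 CPM in Vehicle livers, against 36.2, 28.1, 29.8 and 33.3 CPM in Chow livers. Groups did not overlap, and it fell by 0.65 ± 0.15 (SE) on the log2 scale, with an edgeR adjusted p of 0.00213. Sult1c2, another member of the phenol-sulfating subfamily, had 6.18, 3.88, 4.82, 7.63 and 6.15 CPM in Vehicle livers, against 2.95, 2.52, 2.85 and 4.29 CPM in Chow livers. Vehicle replicate 2 lay below Chow replicate 4, and the other Vehicle livers lay above all Chow livers. The log2 fold change of Sult1c2 was 0.87 ± 0.21 (SE), with an edgeR adjusted p of 0.00202. Sult1e1, Sult2a8 and Sult1b1 are the 3 tested members whose libraries did not overlap, in a contrast where 45.4% of all tested genes did not.

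The 3 members that missed the threshold differed in how tightly they were measured. Sult1a1, the main phenol sulfotransferase, had 183.5, 232, 181.4, 177 and 176 CPM in Vehicle livers, against 245, 190.6, 137 and 180.1 CPM in Chow livers. Its log2 fold change was 0.01, with a 95% interval from -0.30 to 0.33 and an edgeR adjusted p of 0.945. Sult1d1, which sulfonates catecholamines, had 107, 82.5, 106.4, 88.8 and 119 CPM in Vehicle livers, against 132, 101.7, 128 and 99.1 CPM in Chow livers. Its log2 fold change was -0.19, with an interval from -0.50 to 0.12 and an edgeR adjusted p of 0.277. Sult5a1 was measured far less tightly than these.

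Sult5a1 had 11.02, 0.40, 4.62, 6.15 and 18.4 CPM in Vehicle livers, against 14.0, 15.7, 24.8 and 28.2 CPM in Chow livers. Only Vehicle replicate 5 reached into the Chow range, and Vehicle replicate 2 was 46.0-fold below the highest Vehicle liver. The log2 fold change of -1.34 ± 0.71 (SE) had an interval from -2.89 to 0.20 and an edgeR adjusted p of 0.128. Without Vehicle replicate 5 it was -1.89 with an adjusted p of 0.043. Sult3a1, an amine sulfotransferase with high levels in female mouse liver, had 2 counts in Vehicle livers, all in replicate 5. It had 5, 0, 2 and 0 counts in Chow replicates 1 to 4 and was not tested.

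Markers of other cells moved in the same contrast. All 7 macrophage, 6 stellate and 5 cholangiocyte markers were called higher in Vehicle, and 6 of 10 hepatocyte markers were called lower. Over all tested genes 29.8% were called higher and 25.4% lower. Summed macrophage markers were 1697 to 2568 CPM in Vehicle livers, against 113 to 405 CPM in Chow livers. The part of these markers in the member changes was not tested.

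The second comparison, SR9009 against Vehicle, asks what SR9009 added on the same diet. Sult1e1 was the only tested member whose SR9009 livers all lay above all Vehicle livers, and it did not pass the test in the fit of all 3 groups. None of the 7 tested members was called by edgeR's quasi-likelihood test (0 of 7), 0 by DESeq2 and 1 by limma-voom with quality weights, while 1 had an unadjusted p under 0.05. Over all tested genes edgeR called 0.165% higher, 0.077% lower and 0.242% in either direction, and 1.87% had libraries that did not overlap. The members' median log2 fold change was 0.18, against 0.00 over all tested genes, and 6 of 7 were positive.

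Sult1e1 had 26.1, 16.5, 26.5, 33.2 and 21.4 CPM in SR9009 replicates 1 to 5, against 7.87, 4.24, 3.54, 9.72 and 9.24 CPM in Vehicle replicates 1 to 5. The lowest SR9009 liver was well above the highest Vehicle liver. The log2 fold change was 1.84 ± 0.45 (SE), or 3.57-fold with a 95% interval of 1.83 to 6.96, and edgeR's adjusted p was 0.178, at rank 122 of 18181 genes. The call depended on the fit. With only the SR9009 and Vehicle libraries the log2 fold change was 1.83 and edgeR's adjusted p 0.0372. Leaving out Chow replicate 3 gave 1.83 and an adjusted p of 0.0206, limma-voom with quality weights gave 1.98 and 0.0135, and edgeR with a term for the receptor-gene class gave 1.89 and 0.0176. These were the only 4 of 21 alternatives that called it, and the other 17 did not. Over all 21 the log2 fold change stayed between 1.67 and 1.99 and the adjusted p between 0.0135 and 0.412.

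Receptor-gene class and cell markers were set beside the Sult1e1 difference. Within libraries with few receptor genes the SR9009 mean exceeded the Vehicle mean by 1.47 on the log2 scale (2 libraries each), and within those with many by 2.20 (3 libraries each). Mesothelial markers had positive fold changes in 5 of 5 genes, with 0 called by edgeR, 0 by DESeq2 and 0 by limma-voom and 3 at an unadjusted p under 0.05. Their summed level was 21.5, 94.9, 21.9, 80.6 and 82.6 CPM in SR9009 replicates 1 to 5, against 45.9, 7.41, 21.6, 30.7 and 14.1 CPM in Vehicle replicates 1 to 5. Cholangiocyte markers also had positive fold changes in 5 of 5 genes and stellate markers in 5 of 6, each with 0 called by edgeR, DESeq2 or limma-voom and 1 at an unadjusted p under 0.05, which were Krt7 at 0.65 and Acta2 at 0.60. Summed cholangiocyte markers were 610, 1137, 455.5, 1130 and 795 CPM in SR9009 replicates 1 to 5. In Vehicle replicates 1 to 5 they were 762, 880, 969, 590 and 409 CPM. Summed stellate markers were 1012, 1515, 830, 1329 and 1191 CPM in SR9009 livers, against 1279, 1185, 1049, 1084 and 897 CPM in Vehicle livers. Among SR9009 livers Sult1e1 was lowest in replicate 2 (16.5 CPM), which had the highest sum of each list. Sult1e1 was highest in replicate 4 (33.2 CPM), whose sums were also high. They were 80.6 CPM of mesothelial, 1130 CPM of cholangiocyte and 1329 CPM of stellate markers. The part of these markers in the Sult1e1 difference was not tested.

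**Figure D3:**
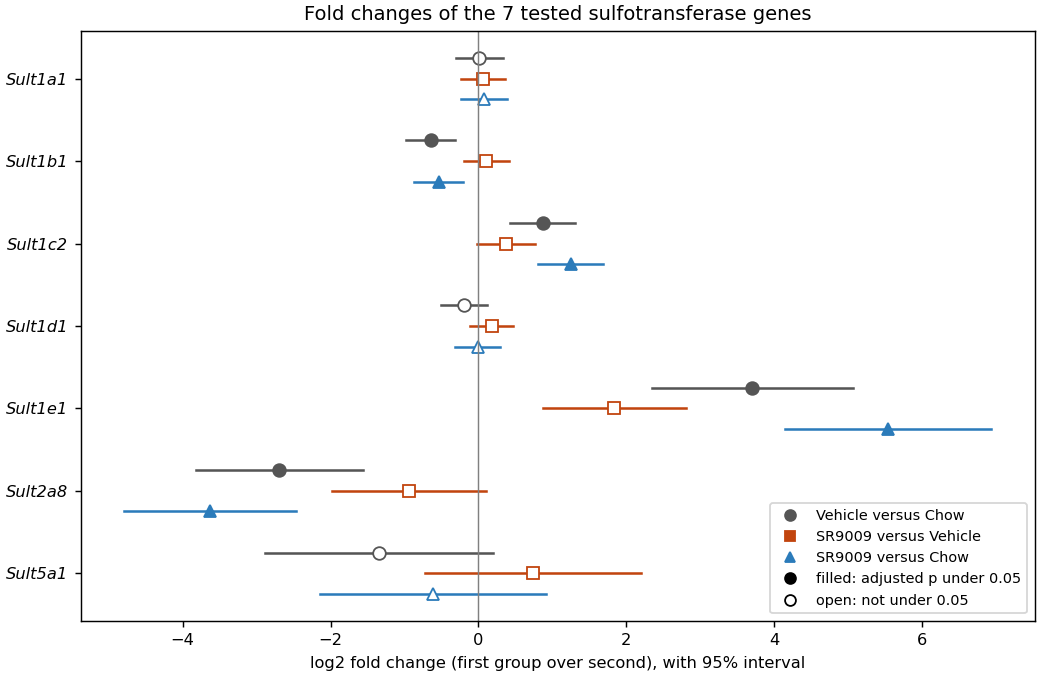
Log2 fold change (horizontal axis, first group over second) of the 7 tested genes in the 3 comparisons, with 95% intervals. Filled symbols mark an adjusted p under 0.05, and Sult1e1 in SR9009 versus Vehicle is an open symbol at 1.84 whose interval lies above 0.

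The other members overlapped between SR9009 and Vehicle. Sult2a8 had 79.7, 49.8, 152, 65.8 and 88.2 CPM in SR9009 livers, against 189.9, 24.6, 113.8, 226 and 279 CPM in Vehicle livers. Its mean was lower under SR9009, but Vehicle replicate 2 had the least of all diet-fed livers. The log2 fold change was -0.94, with an interval from -1.97 to 0.10 and an edgeR adjusted p of 0.739, and it was -1.22 without Vehicle replicate 2 and -1.24 without SR9009 replicate 3. Within receptor-gene classes it was -1.19 with few and -0.29 with many.

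Sult1c2 had 8.14, 5.604, 8.45, 7.68 and 7.30 CPM in SR9009 livers, against 6.18, 3.88, 4.82, 7.63 and 6.15 CPM in Vehicle livers. Of the SR9009 livers 3 lay above every Vehicle liver. Its log2 fold change was 0.37, with an interval from -0.02 to 0.77 and an edgeR adjusted p of 0.717. Sult5a1 had 12.2, 8.34, 28.4, 5.29 and 13.5 CPM in SR9009 livers, against 11.02, 0.40, 4.62, 6.15 and 18.4 CPM in Vehicle livers. Both groups were widely spread, and the interval of its log2 fold change ran from -0.73 to 2.20 (edgeR adjusted p = 0.914).

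The 3 remaining tested members had narrow intervals around small values. Sult1a1 had 186, 181.5, 169.5, 212 and 244 CPM in SR9009 livers, against 176 to 232 CPM in Vehicle livers, and the interval of its log2 fold change ran from -0.23 to 0.36. Sult1d1 had 112, 101.5, 156, 97.7 and 104 CPM in SR9009 livers, against 82.5 to 119 CPM in Vehicle livers, with an interval from -0.11 to 0.47. Sult1b1 had 22.4, 16.5, 26.9, 20.6 and 23.1 CPM in SR9009 livers, against 14.4 to 26.4 CPM in Vehicle livers, with an interval from -0.20 to 0.42. A missed threshold does not show equal levels, but these intervals bound the size of any difference. Sult3a1 had 8, 3, 1, 16 and 1 counts in SR9009 livers, against 2 counts in all Vehicle livers. It was near the floor in both groups, and with no expression filter edgeR's adjusted p was 0.611.

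The third comparison, SR9009 against Chow, shares its libraries with the others, so it is given side by side and not as separate support. The members called were Sult1e1 and Sult1c2, higher, and Sult1b1 and Sult2a8, lower, that is 2 of 7 higher and 2 of 7 lower. In this contrast 30.5% of all tested genes were called higher, 25.7% lower and 56.2% in either direction by edgeR. Sult1e1 differed by 5.54 ± 0.65 on the log2 scale (edgeR adjusted p = 8.005e-06), against 3.71 in Vehicle versus Chow, and by 7.34 without Chow replicate 3. Since Sult1e1 passed the filter through its diet-fed libraries, this difference too is partly fixed by the filter. Sult2a8 differed by -3.63 ± 0.54 (edgeR adjusted p = 7.645e-05), a 12.4-fold fall. Sult1c2 differed by 1.25 ± 0.21 (edgeR adjusted p = 9.865e-05), and Sult1b1 by -0.54 ± 0.15 (edgeR adjusted p = 0.00742).

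These 4 members did not overlap between SR9009 and Chow livers, in a contrast where 46.5% of tested genes did not. For Sult1e1 that is partly fixed by the filter. Sult1a1, Sult1d1 and Sult5a1 again missed the threshold, at log2 fold changes of 0.08, -0.01 and -0.61.

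The promoters of all members were searched for motifs, since the AGGTCA half-site is the core letters bound by REV-ERB and several other nuclear receptors. All 8 genes had an entry among RefSeq promoters (GRCm38.p6, 250 bases before to 50 after each start), with 10 promoters in all. AGGTCA on either strand was found in 3 of the 10, against 16.3% of 32851 promoters. The DR4 motif, a tandem pair of that half-site 4 bases apart, was in 0 of the 10 and in 0.0152% of all. GTTAAT was in 2 of 10 and 7.10% of all, and TATAAA in 3 of 10 and 13.6% of all. The promoters of Sult1e1 and Sult2a8 follow, because these genes had the largest changes in opposite directions. Capitals mark AGGTCA, or TGACCT where it reads on the other strand, and each runs 5′ to 3′ along the gene.
Sult1e1, chr5:87591562-87591861, minus strand: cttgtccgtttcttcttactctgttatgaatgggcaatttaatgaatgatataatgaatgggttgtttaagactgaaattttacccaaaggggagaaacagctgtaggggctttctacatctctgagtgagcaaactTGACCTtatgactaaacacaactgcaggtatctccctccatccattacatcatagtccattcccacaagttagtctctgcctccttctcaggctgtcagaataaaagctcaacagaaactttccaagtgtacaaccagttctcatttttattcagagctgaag
Sult2a8, chr7:14446538-14446837, minus strand: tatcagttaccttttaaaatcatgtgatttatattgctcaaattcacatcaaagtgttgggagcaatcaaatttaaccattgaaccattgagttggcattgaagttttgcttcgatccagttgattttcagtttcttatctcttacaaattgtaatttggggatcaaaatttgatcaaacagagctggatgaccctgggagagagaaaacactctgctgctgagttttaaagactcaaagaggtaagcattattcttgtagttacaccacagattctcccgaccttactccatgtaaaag
Sult2a8, chr7:14438502-14438801, minus strand: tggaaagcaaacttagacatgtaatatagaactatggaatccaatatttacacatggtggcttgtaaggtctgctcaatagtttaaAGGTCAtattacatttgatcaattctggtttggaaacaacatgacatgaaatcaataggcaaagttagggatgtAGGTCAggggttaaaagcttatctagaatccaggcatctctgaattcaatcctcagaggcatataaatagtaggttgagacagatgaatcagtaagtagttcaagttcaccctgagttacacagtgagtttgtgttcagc
Sult1e1 carried 1 half-site, on the strand opposite to the gene, with its first base at -113 from the start. Sult2a8 carried none at its upstream start and 2 at its downstream one, at -164 and -90. The third promoter with a match, with 2 half-sites, belonged to Sult1b1. A match is a run of letters and says nothing of binding.

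Within the diet-fed groups, livers differed along several members at once. SR9009 replicate 3 and Vehicle replicate 5 were each the highest of their group for Sult1b1, Sult1d1, Sult2a8 and Sult5a1 and the lowest for Sult1a1. Vehicle replicate 2 was the lowest Vehicle liver for Sult1b1, Sult1c2, Sult1d1, Sult2a8 and Sult5a1 and the highest for Sult1a1. By receptor-gene class, SR9009 replicate 3 and Vehicle replicate 5 had few and Vehicle replicate 2 had many. Chow livers differed from this pattern: Chow replicate 1 was the highest Chow liver for Sult1a1, Sult1b1 and Sult1d1 and the lowest for Sult5a1. The same SR9009 replicate 3 and Vehicle replicate 5 had the lowest summed cholangiocyte markers of their groups, at 455.5 and 409 CPM, and the lowest stellate markers, at 830 and 897 CPM. Vehicle replicate 2 did not have the highest sum of either list in its group. It had 880 CPM of cholangiocyte markers, against 969 CPM in Vehicle replicate 3. Its stellate markers were 1185 CPM, against 1279 CPM in Vehicle replicate 1. Other lists ranked these livers differently. Summed macrophage markers were lowest of the group in SR9009 replicate 3, at 1514 CPM. Vehicle replicate 5 had 1865 CPM of them, above the 1697 CPM of Vehicle replicate 4. Summed mesothelial markers were lowest in Vehicle replicate 2, at 7.41 CPM, against 14.1 CPM in Vehicle replicate 5 and 21.9 CPM in SR9009 replicate 3. Whether marker levels account for these livers was not tested.

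Among 14765 tested genes with a symbol, the 2 nearest each member were those whose log2 CPM, centred on its own mean, differed least over the 14 libraries (root mean square difference). This difference grows with a member's own SD, so it does not rank how closely members were matched. Sult1b1 had the smallest, with Car8 at 0.11 and Gpld1 at 0.11, where its own SD was 0.38. Sult2a8 lay nearest Susd4, at 0.33, and Slc22a7, an organic anion transporter of hepatocytes, at 0.49, against an SD of 1.83. Sult1e1 had the largest, with H2-M2 at 1.09 and the glutathione peroxidase Gpx2 at 1.13, against an SD of 2.80. Sult5a1 lay nearest Mup-ps7 at 0.66 and Mup2 at 0.67, from the major urinary protein cluster, whose near-identical copies may share reads. Sult1a1 lay nearest Tmed1 and Pfkl, Sult1c2 nearest Myo9b and Adora1, and Sult1d1 nearest Psmg2 and Rnf13, at 0.13 to 0.26. Sult1a1 had an SD of 0.23, Sult1c2 of 0.59 and Sult1d1 of 0.24.

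The rest of the cytosolic family was scarce. Of 13 other genes 5 were tested, and 8 stayed below the filter. In Vehicle versus Chow 4 were called higher and 1 lower by edgeR. The 4 called higher had few or no counts in Chow and passed the filter through diet-fed libraries, so their direction is partly fixed by it and they are given as counts. Sult2a7 was the one that fell, with 0.0235 to 0.470 CPM in Vehicle livers against 2.84, 10.6, 1.95 and 2.14 CPM in Chow livers (log2 fold change -3.97 ± 0.66, edgeR adjusted p = 0.000126). Its Chow libraries were enough to pass the filter, so its direction too may be partly fixed by the filter. Sult2b1, the cholesterol sulfotransferase, had 43, 48, 41, 27 and 17 counts in Vehicle livers against 0, 3, 2 and 0 counts in Chow livers. Sult4a1, a form best known from brain, had 7 to 24 counts in Vehicle livers against 0 to 5 in Chow livers. Sult6b1 had 11 to 16 counts in Vehicle livers against 1 to 6 in Chow livers, and its call was lost without Chow replicate 3 or 4.

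Sult2a2 rested on 1 liver. It had 248 counts in Vehicle replicate 2 and 4 to 18 in the other Vehicle livers, against 3 counts in all Chow livers, and it passed the filter in only 10 of the 14 fits that left out a library. The same Vehicle replicate 2 held 32 of the 41 Vehicle counts of Sult2a1. In SR9009 versus Vehicle none of the 5 was called (0 by edgeR, 0 by DESeq2, 0 by limma-voom, 1 at an unadjusted p under 0.05), and their log2 fold changes ran from -2.52 for Sult2a2 to 0.86 for Sult4a1, with Sult2a7 at -0.02, Sult2b1 at 0.21 and Sult6b1 at 0.06.

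Genes that supply sulfate and PAPS were mostly lower in Vehicle than in Chow livers. Of 11 tested genes of cysteine breakdown and sulfate production, 10 were called lower in Vehicle than in Chow, where 25.4% of all tested genes were, with a median log2 fold change of -0.86 against 0.02 over all tested genes. Those with the smallest adjusted p were Suox, which oxidises sulfite to sulfate, at -1.27 ± 0.12 (edgeR adjusted p = 4.081e-07), Mpst at -0.99, Cbs, the entry enzyme of transsulfuration, at -0.86, and Ethe1 at -1.30. Of 8 tested genes of PAPS supply and sulfate transport, 4 were called lower. Papss2, a PAPS synthase, had 94.99, 96.2, 98.96, 117 and 107 CPM in Vehicle livers, against 234, 232, 219 and 253 CPM in Chow livers. These ranges were far apart, with a log2 fold change of -1.19 ± 0.10 (edgeR adjusted p = 1.062e-07). Bpnt1, which clears the by-product of the sulfotransferase reaction, fell by 0.81, the sulfate transporter Slc26a1 by 0.51 and Papss1 by 0.43 on the log2 scale, and the call of Papss1 was lost without Chow replicate 2.

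Enzymes that remove sulfate, or add it to glycans and tyrosine in the Golgi, were more mixed. Of 12 tested sulfatase genes and activators 5 were called higher in Vehicle than in Chow, where 29.8% of all tested genes were, led by the lysosomal sulfatase Galns at 0.93 and the extracellular heparan sulfatases Sulf1 at 1.87 and Sulf2 at 0.72. Sgsh, at 0.33, lost its call without Chow replicate 1. Of 27 tested Golgi sulfotransferases 12 were called higher and 8 lower, where 29.8% and 25.4% of all tested genes were, so the share called lower is near that background. The count called higher includes genes that passed the filter through diet-fed libraries, so it is not read as an excess over that background. Chst12, a chondroitin sulfotransferase like Chst11, differed by 1.90 and Tpst1, which sulfates tyrosine, by -0.92 on the log2 scale. Hs6st2, a heparan sulfotransferase, had 408 counts over the Vehicle libraries against 2 over the Chow libraries, and Chst11 had 1257 against 23. Both passed the filter through diet-fed libraries, which partly fixes their direction.

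**Figure D4:**
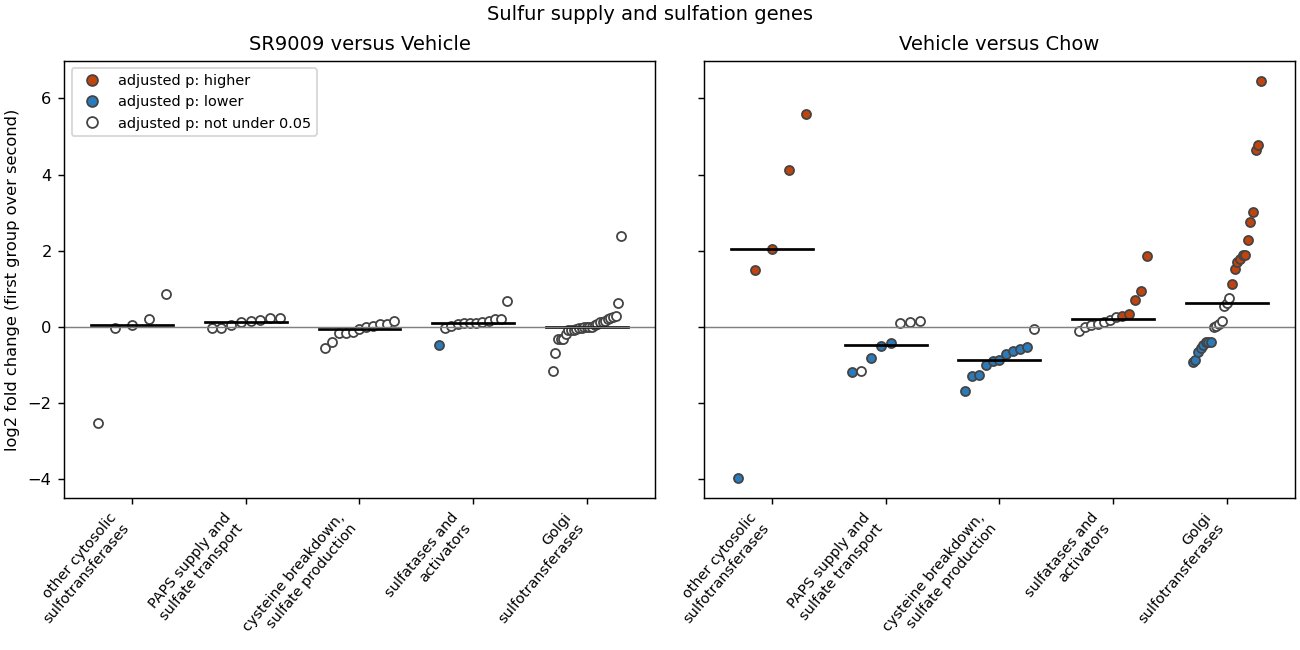
Log2 fold change (vertical axis, first group over second) of the tested genes of 5 sulfation lists, 1 point per gene, in SR9009 versus Vehicle (left) and Vehicle versus Chow (right), with the list median as a bar. The 10 of 11 genes of sulfate production called lower stand in the right panel, and Arsg is the 1 filled point in the left panel.

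In SR9009 versus Vehicle 1 gene of these sulfation lists was called. Arsg, a lysosomal arylsulfatase, had 24.3, 28.6, 27.3, 27.3 and 27.4 CPM in SR9009 livers, against 32.9, 42.7, 35.8, 37.8 and 39.4 CPM in Vehicle livers. No SR9009 liver reached the Vehicle range, with a log2 fold change of -0.48 ± 0.07 (SE) and an edgeR adjusted p of 0.00691. None of the sulfate source genes was called by edgeR (0 of 11), against 1 by DESeq2, 0 by limma-voom and 2 at an unadjusted p under 0.05. For PAPS supply it was 0 of 8 by edgeR, 0 by both other tools and 1 unadjusted, and for Golgi enzymes 0 of 27 by edgeR, 2 by DESeq2, 0 by limma-voom and 2 unadjusted. Their leading genes by p were Cbs (-0.39), Bpnt1 (0.22) and Chst3 (-1.17), with edgeR adjusted p of 0.221, 0.463 and 0.146.

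Receptors and factors known to act on sulfotransferase genes were mostly lower in Vehicle than in Chow. Of 15 tested, 11 were called lower and 2 higher, where 25.4% and 29.8% of all tested genes were. Nr1i2, the pregnane X receptor, fell by 0.64 and Stat5b, which carries growth hormone signals, by 0.52 on the log2 scale. In SR9009 versus Vehicle none of the 15 was called by edgeR (0), against 1 by DESeq2, 0 by limma-voom and 4 at an unadjusted p under 0.05. The 4 with the smallest p were Stat5b at -0.29 (edgeR adjusted p = 0.157), the dioxin receptor gene Ahr at 0.50 (0.264), Nr1d2, which encodes REV-ERB beta, at 0.40 (0.388) and Rora at -0.25 (0.481).

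In SR9009 versus Chow the counts were close to those of Vehicle versus Chow. Over all tested genes 30.5% were called higher and 25.7% lower in this contrast. The edgeR test called 3 of 5 other family genes higher and 1 lower, 3 of 8 PAPS and transport genes lower, and 11 of 11 sulfate source genes lower. It called 7 of 12 sulfatase genes higher and 1 lower, 13 of 27 Golgi enzymes higher and 8 lower, and 2 of 15 regulators higher and 11 lower. Among the other family and Golgi genes are some that passed the filter through the groups where they are high, which partly fixes their direction. Calls of Slc26a1, Cdo1 and Got1 were each lost when any of several single libraries was left out.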

How the data were processed

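Bulk liver RNA was sequenced for 15 described samples, of which 14 entered the analysis. Chow replicate 5 was not analysed here. The authors deposited raw counts, 1 row per Ensembl gene. The submitters' processing notes name STAR 2.7.11b and the build GRCm39. No source used here gives the counting program, its annotation or its strand setting.

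Symbols came from a reference table of names and matched 51880 of 57132 identifiers (90.8%, holding 99.6% of counts). Genes were kept by filterByExpr with a count minimum of 10 and a total of at least 15. The 18181 genes kept held 99.9% of counts. TMM scaling gave factors of 0.753 to 0.824 in Chow and 1.02 to 1.15 in diet-fed libraries. Comparisons used quasi-likelihood F tests in edgeR 4.0.16 (R 4.3.3), with 1 shared spread over all groups. Adjustment was by Benjamini-Hochberg across the tested genes, at a threshold of 0.05. The common coefficient of biological variation was 0.211. Intervals are 95%, and each SE is the one that gives the F. CPM per kb divides by exon length from GENCODE M21 (GRCm38). Motifs were searched on both strands of RefSeq promoters (GRCm38.p6). Bpnt2 and Sts had no matching symbol.

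No library repeated another: the 26 pairs within groups differed by a mean chi-square of 16 or more per gene. The scripts were tested on simulated data. Alternatives were DESeq2 1.42.0, limma-voom (limma 3.58.1), DESeq2 size factors, no filter, only the groups compared, a replicate block, a receptor-gene class term and leaving out each library. The class was parted at 113 of 1752 receptor genes detected. The text names the members, all other tested family genes, up to 4 genes per list and comparison with the smallest adjusted p, and 2 nearest genes per member. Slc26a1, Cdo1 and Got1 in SR9009 versus Chow and Sult2a1 were named after their values were seen. Results for 2 genes that this rule names are not reported here. Members and lists were chosen with earlier results of these data known.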

Additional observations from a re-analysis of the deposited data

Results flagged for a closer look

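Single libraries stood apart from the rest of their group in 4 of 24 member groups examined by Dixon's test. Chance flags about 1 in 20 groups of continuous values. That rate does not hold for a group of mostly 0 counts, so the number flagged is not set against it. Sult1a1 was 231.7 CPM in Vehicle replicate 2, against 183.5 CPM in the next Vehicle liver. Sult1d1 was 156.1 CPM in SR9009 replicate 3, against 112 CPM in the next SR9009 liver. Sult1e1 was 1.62 CPM in Chow replicate 3, against 0.289 CPM in the next Chow liver, and the fold changes of Sult1e1 against Chow are given with and without it in the text. Sult3a1 was 0.0427 CPM in Vehicle replicate 5, which is 2 counts, with 0 in the other Vehicle livers. A lone value among zeros is always flagged, so this flag was fixed by the counts.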

How the results depend on the processing

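The 4 members called against Chow (Sult1e1, Sult1c2, Sult1b1 and Sult2a8) kept their direction and their call in all 20 alternatives of Vehicle versus Chow and of SR9009 versus Chow. For Sult1e1, which passed the filter through diet-fed libraries, that direction is partly fixed, so its kept call adds no separate support. Genes called in SR9009 versus Vehicle numbered 44, against 212 with DESeq2, 15 with the replicate block and 106 with the receptor-gene class term, and 18 to 56 when 1 library was left out. Leaving out 1 library gave 9248 to 10059 genes in Vehicle versus Chow and 9450 to 10287 in SR9009 versus Chow. Members called in SR9009 versus Vehicle were 0, and 1 (Sult1e1) with limma-voom, with only the 2 groups compared and with the class term, and 0 to 1 when 1 library was left out. Leaving out 1 library gave 4 to 5 members in Vehicle versus Chow, the fifth being Sult5a1, which limma-voom also called (-1.72, adjusted p = 0.0485), and 4 in each fit of SR9009 versus Chow. The cause was not tested.

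Signs turned only for uncalled values near 0. With no filter Sult1d1 in SR9009 versus Chow was 0.0103, and leaving out 1 library gave it -0.1473 to 0.0632. Leaving out 1 library gave Sult1a1 -0.1086 to 0.1713 in Vehicle versus Chow, -0.0212 to 0.1456 in SR9009 versus Vehicle and -0.046 to 0.2338 in SR9009 versus Chow. With no filter the median of all genes in Vehicle versus Chow was 0.19 over 35443 genes, against 0.02.

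Replicate numbers did not pair the samples: deviations of same-numbered libraries correlated from -0.36 to 0.20, and the replicate block changed no member's call. Depth limits Sult3a1, Sult2a2, Sult2b1, Sult4a1 and Sult6b1, whose Chow counts were near the floor of 3. Sult2a7 went below that floor in its lowest Vehicle liver, so depth also limits its fold against Chow. Sult1e1 had 5, 1, 49 and 7 counts in Chow replicates 1 to 4, so depth also limits its folds against Chow.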
